A study of Mus musculus with 4 samples.

Results

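Transcripts of 10 genes that govern apoptosis were examined in cells derived from mouse mammary tumours and labelled Pak1-/- or Pak1+/+. The genes were the survival members of the BCL2 family (Bcl2, Bcl2l1 and Mcl1), the pore-forming effector Bak1, the BH3-only members Bmf, Bcl2l11, Bid, Bik and Bad, and the inhibitor of apoptosis (IAP) Birc3. They were found on the array by the gene name given to each probe, with control spots set aside. All 10 genes had a probe, among 31829 gene names, and together they had 13 of the 39429 probes. Bcl2l1, Mcl1 and Bad had 2 probes each. All 13 were well above background on every array, and none was saturated. The brightest probe of a gene over the 4 arrays stood for the gene, and the other probes are given beside it.

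The tumours had arisen in MMTV-Neu mice. Their transgene places the Neu form of the oncogene Her2 (Erbb2) under a viral promoter (MMTV) active mainly in mammary epithelium. The study compared 2 samples labelled Pak1-/- with 2 labelled Pak1+/+ to find genes that differ in the absence of the kinase Pak1. All 4 carried the Neu transgene, were grown in low calcium medium with 5% horse serum, were starved of serum for 3 h and then received EGF for 15 min. Per the series' design, each group came from separate tumours, while the methods speak of tumour-derived cell lines, so that the p-values measure only the spread between these samples, which may be that of cultures. The age and strain of the mice are not given in the sources used here.

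The BCL2 family decides whether the outer mitochondrial membrane is opened. Survival proteins such as Bcl-2, Bcl-xL (from Bcl2l1) and Mcl-1 hold the effectors Bax and Bak in check. BH3-only proteins sense stress, fill the groove of the survival proteins and so free or activate the effectors, after which cytochrome c leaves the mitochondria and caspases are switched on. IAPs act later, by binding caspases or by marking proteins with ubiquitin. In mammary epithelium, Bim (from Bcl2l11) and Bmf are known for their part in the death of cells that lose contact with the matrix, and Erbb2 signalling is known to hold Bim down. Pak1 is known to phosphorylate Bad.

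What was measured is the binding of labelled RNA to short stretches of each transcript, and 6 of the probes are shown to make clear what was read. They are among the 10 probes with a reading frame free of stop codons along their 60 bases, and they include both probes that map across an intron. All are read 5′ to 3′, in lower case throughout because no motif was searched in them:
Bcl2 (A_51_P380013): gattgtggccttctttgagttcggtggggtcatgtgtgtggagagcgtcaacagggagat
Bcl2l1 (A_52_P510877): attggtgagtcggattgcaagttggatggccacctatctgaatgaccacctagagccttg
Bik (A_51_P117794): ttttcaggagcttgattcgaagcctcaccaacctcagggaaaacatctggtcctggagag
Bcl2l11 (A_51_P484880): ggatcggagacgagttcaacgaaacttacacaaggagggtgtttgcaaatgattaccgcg
Bad (A_65_P16603): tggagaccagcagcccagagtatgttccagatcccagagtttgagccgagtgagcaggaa
Birc3 (A_55_P1980287): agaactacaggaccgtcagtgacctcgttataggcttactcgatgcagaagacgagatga
The Bcl2l11 probe covers mm9 chromosome 2, 127972893 to 127983988, a span of 11096 bases for 60 bases of probe, and the second Bad probe a span of 486 bases. Both therefore read spliced RNA. The array file names transcript variant 2 for the Bcl2 probe. For the Bcl2l11 probe it names variant 1 and lists further transcripts of the gene beside it. The other 11 probes map without a gap. The files do not say whether a probe lies in a coding or an untranslated exon. The accession of each of the 13 probes led to the same symbol in the RefSeq table of the GRCm38.p6 assembly.

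On the whole array, the median spot intensity was 322.2 to 331.1 over a background of 39.0 to 42.0, and r within each group was 0.997 across probes (genes are not independent replicates). The probe of Pak1 itself, examined to check the labels, was at a log2 intensity of 12.21 and 12.25 with the label Pak1-/- and of 12.04 on both arrays labelled Pak1+/+. It was not lower in the arrays labelled Pak1-/- (difference 0.19, SE 0.07, adjusted p = 0.070 in limma), and the sources used here do not say whether it lies in the deleted part of the gene. Every direction is therefore that of the labels. Of 21969 genes tested, 51.0% passed an adjusted p of 0.05, with 22.8% higher and 28.2% lower where the label was Pak1-/-. Slide position and genotype cannot be told apart, since positions 1 and 2 held the arrays of the first group. Markers of the epithelium were at high levels. Krt18 was at 18.86 in the arrays labelled Pak1-/- and 18.59 in the others, and Krt8 at 18.69 and 18.11. Epithelial markers also moved with the groups: 6 of 8 were higher in the arrays labelled Pak1-/- (Krt14 by 2.83, Cdh1 by 1.19, Krt8 by 0.57, Krt5 by 0.50, Trp63 by 0.43 and Krt18 by 0.27), none was lower, and the mean log2 intensity of the list was 13.82 to 13.88 against 13.18 to 13.28. Epcam (−0.23, adjusted p = 0.058) and Krt19 (−0.64, adjusted p = 0.17) did not pass. The mean of 10 leukocyte markers was 8.78 to 8.82 on the 4 arrays and that of 7 fibroblast markers 7.17 to 7.29. Among those tested, Ptprc (−0.45) and Coro1a (−0.93) were lower and Col1a1 (1.12) was higher. The brightest probe of the endothelial marker Kdr did not pass (0.04, adjusted p = 0.78). A second Kdr probe, dim on both arrays labelled Pak1+/+, was at least 2.17-fold higher. Well above background on all 4 arrays were 6 of the 10 leukocyte markers (Ptprc, Cd3e, Itgam, Cd68, Csf1r and Coro1a), 3 of the 7 fibroblast markers (Col1a1, Col1a2 and Pdgfra), 2 of 5 endothelial markers (Kdr and Pecam1) and 0 of 3 adipocyte markers. On no array was this so for Lyz2, Laptm5, Col3a1, Dcn, Lum, Tek, Tie1 and Adipoq. These marker counts and means take the brightest probe of a gene, and some probes disagreed. With that probe Itgam was at 15.79 in the arrays labelled Pak1-/- and 15.30 in the others, but group means of its other probes lay between 7.37 and 7.94. Csf1r was at 10.91 and 10.79 with its brightest probe and at 7.17 and 6.89 with its dimmest. The part of the epithelial shift in the values of the apoptosis genes was not tested. In such samples fewer cells of a type and less RNA per cell cannot be told apart.

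With the label Pak1-/-, 6 of the 10 genes were higher (Bmf, Bak1, Bcl2l11, Birc3, Mcl1 and Bcl2), 3 were lower (Bcl2l1, Bik and Bid), and Bad did not pass. The rise reached 2-fold for Bmf, Bak1, Bcl2l11 and Birc3, and none of the lower genes fell by as much. The 9 genes called stand against a background of 51.0% of all genes, and the 4 called with at least a 2-fold difference against 12.6% (7.00% higher and 5.62% lower). Only Bmf was well clear of 2-fold, which is 1 on the log2 scale. Without Pak1-/- replicate 2, Bak1 (0.98) and Bcl2l11 (0.96) were under it, and without Pak1+/+ replicate 1, Bcl2l11 (0.94) and Birc3 (0.92), which left 2 of the 4 each time. Bak1 was also under it with the arrays scaled to their 75th percentile (0.94 from the processed signal and 0.98 after normexp). With the processed signal so scaled, the brighter Bcl2l1 probe fell by more than 2-fold (−1.025). The second Bcl2l1 probe was at −1.04 at its lowest over the alternatives. By probe, 7 of the 13 were higher and 4 lower, where 51.9% of all probes tested were called (23.3% higher and 28.6% lower). The groups did not overlap for any of the 10 genes, as was true of 77.6% of all genes. The median log2 difference was 0.56 over the 10 genes and −0.055 over all genes tested. Since the genes were chosen with earlier results of these data known, no test was made of them as a list.

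**Figure D1:**
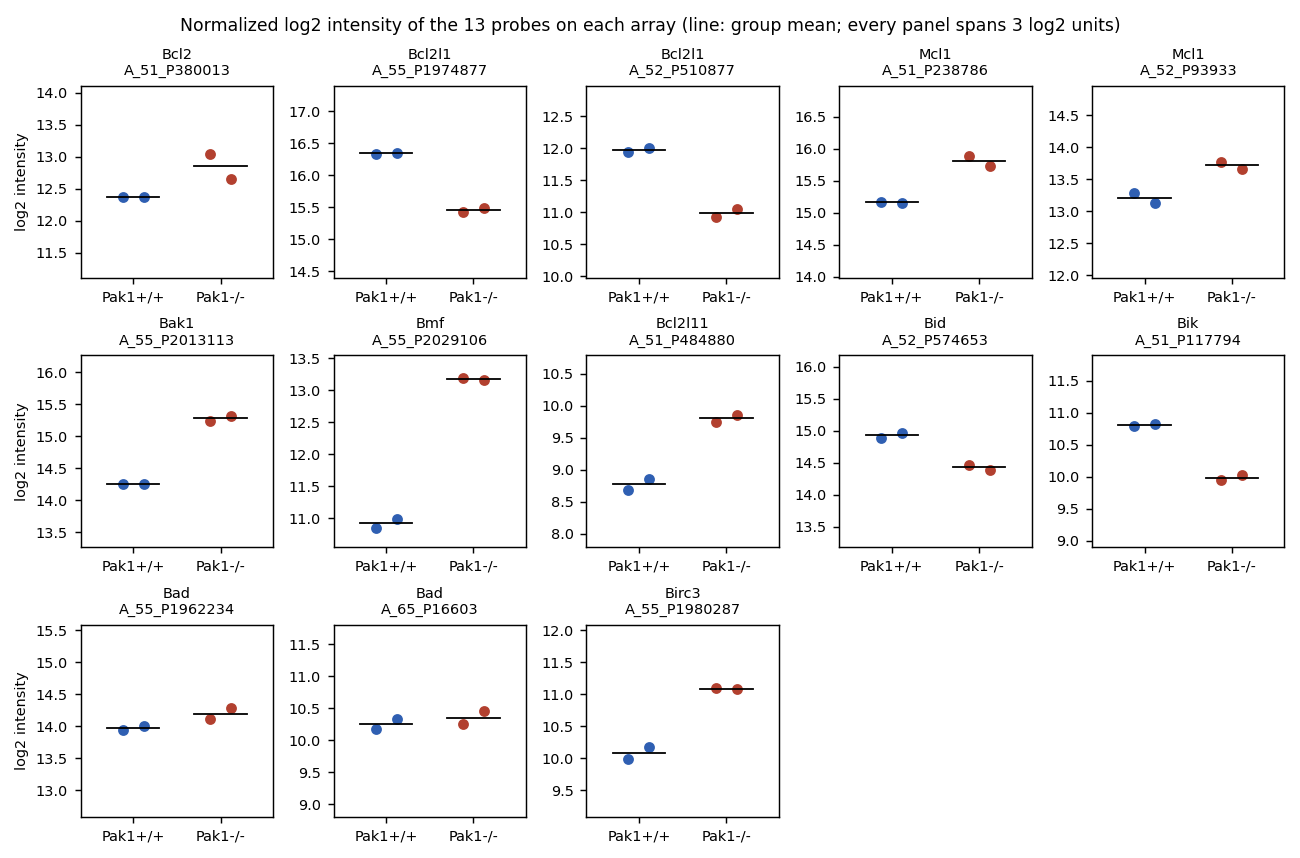
Normalized log2 intensity (vertical axes, each spanning the same range around its own centre) of the 13 probes on the 2 arrays labelled Pak1+/+ (blue) and the 2 labelled Pak1-/- (red), with a line at each group mean. The points of the groups are farthest apart for Bmf (10.85 and 10.99 against 13.19 and 13.17), and overlap for the second Bad probe.

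The survival genes did not move together. Bcl2l1 encodes Bcl-xL, a survival protein of the outer mitochondrial membrane. Its brighter probe (A_55_P1974877, mm9 chromosome 2, 152606404 to 152606463) read 15.44 and 15.49 in the arrays labelled Pak1-/-, against 16.34 and 16.35 with the label Pak1+/+. Both values of the first group were below both of the second. The difference was −0.88 (SE 0.07, adjusted p = 0.00096), or 1.85-fold lower. The second probe, in the part of the transcript printed above (152655185 to 152655244), read 10.92 and 11.04 against 11.93 and 12.002, with a difference of −0.98 (SE 0.08, adjusted p = 0.0011). The 2 probes lie some distance apart along the gene and gave overlapping 95% intervals, from −1.06 to −0.70 and from −1.20 to −0.77.

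Mcl1, whose short-lived protein product holds Bak in check, went the other way. Its brighter probe (A_51_P238786, mm9 chromosome 3, 95466855 to 95466914) was at 15.88 and 15.73 with the label Pak1-/- and at 15.17 and 15.15 on the other arrays. The groups were separate, with a difference of 0.64 (SE 0.08, adjusted p = 0.0039), or 1.56-fold higher. The second probe (A_52_P93933, 95465543 to 95465602) gave 13.77 and 13.66 against 13.28 and 13.13, a difference of 0.51 (SE 0.09, adjusted p = 0.0088).

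Bcl2, the founding survival gene of the family, had the least secure call. Its probe (mm9 chromosome 1, 108608970 to 108609029) was at 13.05 and 12.66 in the group labelled Pak1-/- and at 12.37 and 12.38 in the other. The groups did not overlap, but the first 2 arrays differed from each other by nearly as much as the group means did. The difference of 0.48 (SE 0.14, 1.40-fold, adjusted p = 0.045) lost its call under 7 of 14 alternatives, with adjusted p from 0.012 to 0.12. Without Pak1-/- replicate 1, the higher of the pair, it was 0.29 (adjusted p = 0.059), and it was 0.68 without Pak1-/- replicate 2. Without Pak1+/+ replicate 1 or 2 the value stayed at 0.47 and 0.48 while the adjusted p became 0.12 for each.

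The effector Bak1, which forms pores in the outer membrane once activated, was higher. Its single probe (A_55_P2013113, mm9 chromosome 17, 27156807 to 27156866) read 15.24 and 15.32 with the label Pak1-/- and 14.25 and 14.26 on the other arrays. Both values of the first group were above both of the second. The difference was 1.03 (SE 0.07, adjusted p = 0.00074), or 2.04-fold.

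The BH3-only genes were divided. Bmf, whose product is held at the cytoskeleton by a dynein light chain and freed when cells detach, changed most of the 10 genes. Its probe (A_55_P2029106, mm9 chromosome 2, 118354496 to 118354555) was at 13.19 and 13.17 in the group labelled Pak1-/- and at 10.85 and 10.99 in the other, far outside the spread of either. The difference of 2.26 (SE 0.08, adjusted p = 0.00015) was 4.78-fold. Bcl2l11 encodes Bim, which binds all the survival proteins and is marked for degradation by ERK signalling. It was at 9.74 and 9.86 against 8.69 and 8.86 with the probe across the intron. That was a difference of 1.03 (SE 0.09, adjusted p = 0.0015), or 2.04-fold higher. The raw spot intensities there were 840.8 and 949.7 against 403.6 and 434.0, over a local background of 39.5 to 44.0.

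Bik and Bid were lower. Bik, a BH3-only protein of the endoplasmic reticulum, was read by a probe at mm9 chromosome 15, 83374048 to 83374107, at 9.96 and 10.02 with the label Pak1-/- and 10.79 and 10.83 on the other arrays. The groups were separate and the difference was −0.82 (SE 0.07, adjusted p = 0.0013), or 1.77-fold lower. Bid, which caspase 8 cleaves to carry the signal of death receptors to mitochondria, was at 14.47 and 14.39 against 14.89 and 14.96 (A_52_P574653, mm9 chromosome 6, 120843464 to 120843523). The difference was −0.50 (SE 0.08, adjusted p = 0.0059), or 1.41-fold lower.

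Bad, a BH3-only protein that 14-3-3 proteins sequester once it is phosphorylated, did not pass the threshold with either probe. The brighter (A_55_P1962234, mm9 chromosome 19, 7026323 to 7026382) read 14.11 and 14.28 with the label Pak1-/- and 13.95 and 14.01 on the other arrays. The groups did not overlap, yet the difference of 0.22 (SE 0.09, adjusted p = 0.096) had a 95% interval of −0.01 to 0.46, so that a rise of up to 0.46 log2 is compatible with these arrays. After cyclic loess normalization it was 0.33 and passed (adjusted p = 0.027, where the alternatives spanned 0.027 to 0.29). Without Pak1-/- replicate 2 it was 0.14 (adjusted p = 0.24), and without Pak1-/- replicate 1 it was 0.31 (adjusted p = 0.061). The probe across the intron was at 10.25 and 10.45 against 10.18 and 10.33, where the groups overlapped (difference 0.10, SE 0.10, adjusted p = 0.49, 95% interval −0.18 to 0.37).

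Birc3 encodes cIAP2, a ubiquitin ligase that acts with TRAF proteins at TNF receptors and whose gene is a known target of NF-κB. It was higher. Its probe (mm9 chromosome 9, 7854409 to 7854468) read 11.10 and 11.08 in the group labelled Pak1-/- and 9.997 and 10.17 in the other. The groups were separate, with a difference of 1.01 (SE 0.09, adjusted p = 0.0013), or 2.01-fold. Birc2, which encodes the related cIAP1, was higher by 0.22 (SE 0.07, adjusted p = 0.045).

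**Figure D2:**
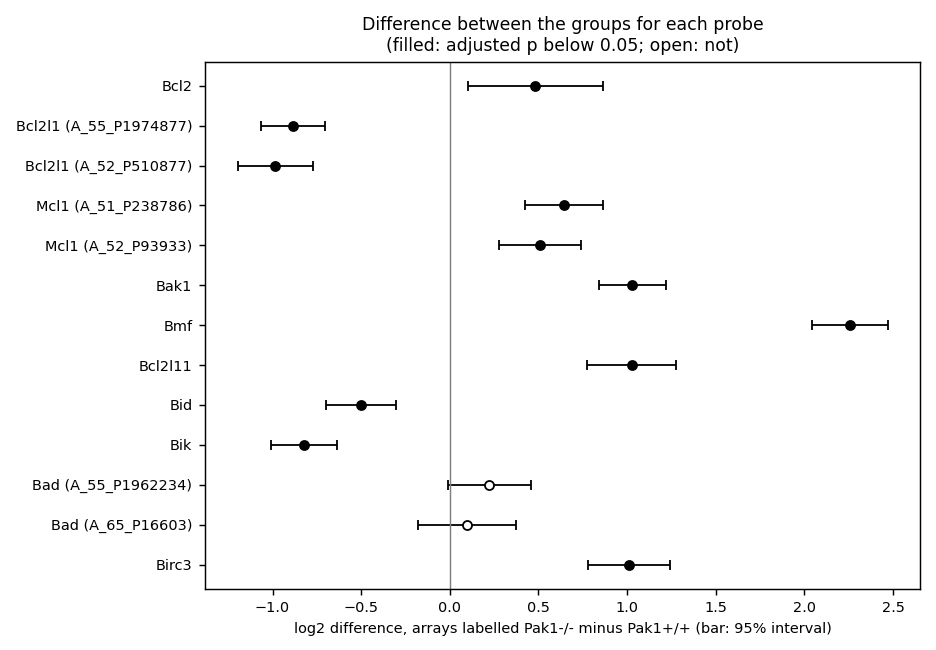
Log2 difference between the arrays labelled Pak1-/- and those labelled Pak1+/+ (horizontal axis) for each of the 13 probes, with its 95% interval from limma on 2 arrays a group and filled points for an adjusted p below 0.05. Bmf stands alone at 2.26, the Bcl2l1, Bid and Bik probes lie left of 0, and the 2 open points are those of Bad.

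Under other settings the calls of Bcl2 and Bad changed, and those of the other genes did not. Of the 13 probes, 10 kept their direction and their side of the threshold in all 14 alternatives, and all 10 of those were called. Bmf ranged from 2.18 to 2.33, Bak1 from 0.94 to 1.14, Bcl2l11 from 0.94 to 1.22 and Birc3 from 0.92 to 1.10. The brighter Bcl2l1 probe ranged from −1.03 to −0.78, Bik from −0.86 to −0.74 and Bid from −0.57 to −0.40. With 2 arrays a group, the smallest p of an exact permutation test is 0.333, and none was run on single probes.

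**Figure D3:**
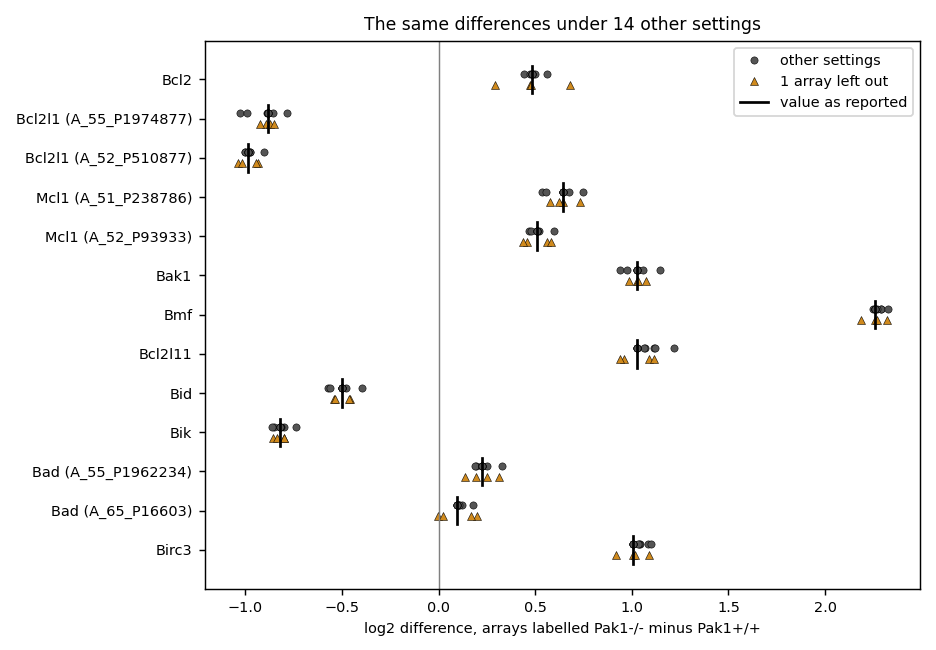
The value reported for each probe (black line) with its values when 1 array was left out (triangles) and under the other settings (circles), as log2 differences on the horizontal axis. The marks stay close to the line for Bmf (2.18 to 2.33) and spread widest for Bcl2 (0.29 to 0.68).

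The promoters of these genes were searched for a pair of short motifs, chosen because Forkhead box O (FOXO) factors are known to drive Bcl2l11 and NF-κB to drive Birc3 and Bcl2l1. The windows hold 300 bases around each annotated start, from RefSeq on the GRCm38.p6 assembly, and 9 of the 10 genes had 15 windows in the table. The FOXO motif GTAAACA, on either strand, was present in 3.65% of all 32851 windows and in 1 window of these genes, that of Bcl2l11. The κB-like motif (GGG, any 2 bases, then TTTCC) was also searched on either strand. It was present in 1.63% of all windows and in 1 window each of Bcl2l1, which was lower, and Mcl1, which was higher. None of the Bmf or Birc3 windows held either. The 3 windows with a match are shown 5′ to 3′ on the strand of the gene, with the match in capitals, at bases 24 to 30 for Bcl2l11, 33 to 42 for Bcl2l1 and 223 to 232 for Mcl1, the last 2 in reverse complement:
Bcl2l11 (chr2:128125788-128126087, plus strand): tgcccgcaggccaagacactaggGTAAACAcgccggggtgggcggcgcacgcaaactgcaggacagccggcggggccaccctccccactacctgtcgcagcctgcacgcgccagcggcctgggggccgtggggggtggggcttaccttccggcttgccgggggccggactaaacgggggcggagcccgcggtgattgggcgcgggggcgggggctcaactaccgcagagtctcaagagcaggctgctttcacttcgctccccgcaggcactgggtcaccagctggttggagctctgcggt
Bcl2l1 (chr2:152830668-152830967, minus strand): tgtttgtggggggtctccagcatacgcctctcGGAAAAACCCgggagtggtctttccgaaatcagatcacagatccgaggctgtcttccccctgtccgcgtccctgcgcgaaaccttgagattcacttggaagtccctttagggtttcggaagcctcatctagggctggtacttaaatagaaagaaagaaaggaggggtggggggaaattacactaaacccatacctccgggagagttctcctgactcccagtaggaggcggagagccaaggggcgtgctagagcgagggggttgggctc
Mcl1 (chr3:95658471-95658770, plus strand): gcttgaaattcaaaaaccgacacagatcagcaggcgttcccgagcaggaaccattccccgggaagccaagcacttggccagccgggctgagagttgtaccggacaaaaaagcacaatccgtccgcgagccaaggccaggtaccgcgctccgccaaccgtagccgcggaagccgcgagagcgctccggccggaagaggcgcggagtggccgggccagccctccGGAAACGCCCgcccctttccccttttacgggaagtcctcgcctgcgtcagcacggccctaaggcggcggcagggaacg
A match describes the sequence and says nothing of binding in these cells, and the lack of one says only that these letters are not in the window.

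The rest of the family was counted from lists, to be read against the 22.8% higher and 28.2% lower (51.0% called) and the median of −0.055 over all genes tested. Of 17 other BCL2 family genes, 15 had a named probe and 12 were tested, of which 8 were higher and 1 lower, with a median log2 difference of 0.56. The higher genes included Bbc3 (Puma, a BH3-only target of p53) by 1.34 (SE 0.07, adjusted p = 0.00033), the effectors Bok by 0.99 and Bax by 0.68, and Bcl2l12 by 0.79. The survival gene Bcl2a1d was higher by 1.597, but it belongs to a cluster of near-identical copies that a probe may not tell apart. By brightest probe, the single lower gene was Pmaip1 (Noxa, the BH3-only partner of Mcl-1), with a difference of −1.03 (SE 0.17, adjusted p = 0.0075). The brightest probes of Bcl2l14 and Bcl2l15 did not pass, but a dimmer one of each was lower (−0.53 and −0.52, adjusted p = 0.028 for each). A further Bcl2l15 probe, dim on both arrays labelled Pak1+/+, was higher (0.54, adjusted p = 0.0081). Hrk and Bcl2l10 did not rise well above background on a single array.

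Of 14 further IAPs and their regulators, 6 were higher and 4 lower, with a median of 0.18, where 51.0% of all genes were called. Xaf1, an antagonist of XIAP that interferon is known to induce, rose most, from 10.57 ± 0.23 to 14.80 ± 0.07 (SD, n = 2 each). The log2 difference was 4.23 (SE 0.13, adjusted p = 0.00012 in limma). A second Xaf1 probe, dim on both arrays labelled Pak1+/+, was at least 4.02-fold higher. Traf2, the adaptor that recruits cIAP1 and cIAP2, was higher by 0.94. Naip6 and Naip2, NAIP genes with near-identical copies that probes may not separate, were higher by 1.86 and 1.26. The lower genes were Birc5 (survivin, made mainly in dividing cells) at −1.07, Htra2 at −0.40, Diablo at −0.34 and Xiap at −0.31, where Htra2 and Diablo are the mitochondrial antagonists of IAPs.

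In the apoptosome and the caspases, of 17 genes, 4 were higher and 8 lower, and the median was −0.10. The share higher was close to the 22.8% of all genes, and 28.2% of all genes were lower. Cradd, an adaptor of caspase 2, was 2.60-fold lower (difference −1.38, SE 0.08, adjusted p = 0.00040). Also lower were Parp1 (−0.54), Cycs, which encodes cytochrome c (−0.37), and Pidd1 (−0.34; named Lrdd on the array). The executioner Casp6 was higher by 1.20 (SE 0.07, adjusted p = 0.00043), or 2.30-fold, followed by the initiator Casp9 (0.52), Dffa (0.33) and Dffb (0.31). Of the other Dffa probes, A_55_P2066414 was also higher (0.33, adjusted p = 0.021), and A_51_P141190 did not pass (0.12, adjusted p = 0.68). Apaf1, the scaffold of the apoptosome, did not pass (−0.03, adjusted p = 0.88), nor did Casp8 (−0.06, adjusted p = 0.50).

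Among 19 genes whose products bind these proteins or control their turnover, 5 were higher, 4 were lower and none differed by 2-fold. Over all genes, 51.0% were called and 12.6% were called with a 2-fold difference. The median of the list was 0.07. Sfn, which encodes the sigma form of 14-3-3, was higher by 0.81, while the 14-3-3 genes Ywhaz and Ywhab were lower (−0.42 and −0.30). The probes of Ywhaz disagreed, since another was lower by the same measure (−0.43, adjusted p = 0.038) and a further one was not (0.01, adjusted p = 0.91). The co-chaperone gene Bag3 was higher by 0.80, and Bag1, whose product binds Bcl-2, was lower (−0.68). Fbxw7 (0.49) and Btrc (0.34), which encode F-box proteins of ubiquitin ligases, and Foxo3 (0.39) were higher. A second Btrc probe did not pass (−0.16, adjusted p = 0.20). Vdac1, a channel of the outer mitochondrial membrane, was lower (−0.34). Dynll1 and Dynll2, the dynein light chains that hold Bim and Bmf, did not pass (0.20, adjusted p = 0.16, and 0.28, adjusted p = 0.056), and a second Dynll2 probe was at 0.0098 (adjusted p = 0.93).

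**Figure D4:**
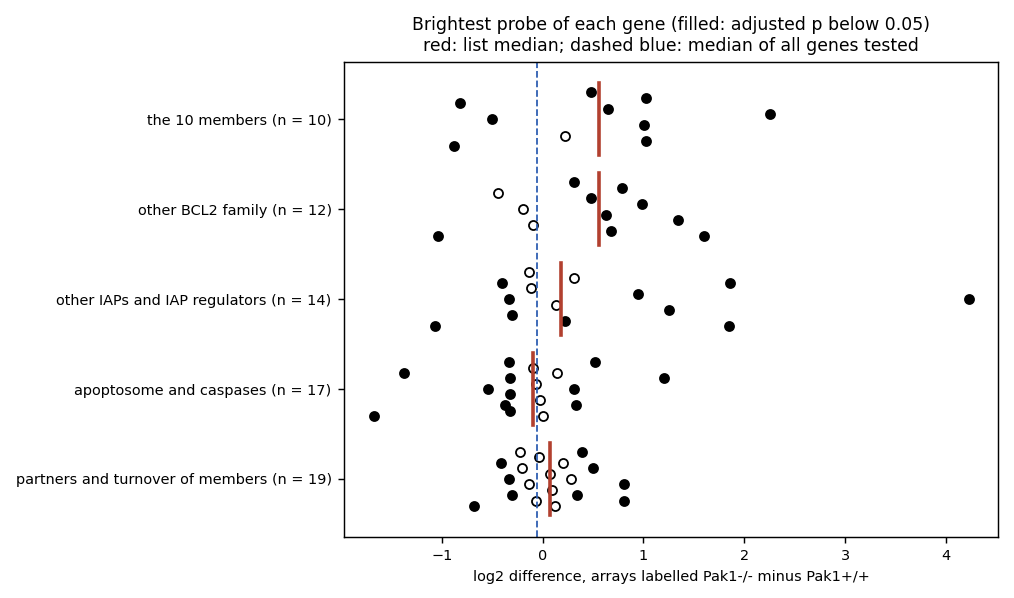
Log2 differences (horizontal axis) of the brightest tested probe of each gene in the 10 genes and 4 related lists, filled for an adjusted p below 0.05, with the list median in red and the median of all genes tested (−0.055) as a dashed line. The medians of the 10 genes and of the other BCL2 family genes lie at 0.56, those of the other lists at 0.18 or less.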

How the data were processed

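Total RNA of 4 samples was labelled with Cy3 (0.5 µg each) and hybridized to a mouse array with 60-base probes, designed on the mm9 build. All 4 arrays lay on 1 slide and were read in 1 scan. The scanner output, deposited as linear spot intensities, came from Feature Extraction 9.5.3.1 per the file headers and was not normalized across arrays. A processed table of log2 values from the authors (normexp and quantile, by their methods) served as an alternative.

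Following those methods, normexp with an offset of 50 was applied in limma 3.58.1 under R 4.3.3, which shrinks the change of dim probes. Control spots were left out, and the log2 intensities were quantile normalized. Outlier spots were removed, and repeated spots of a probe were averaged. A probe entered the test if 2 or more arrays had it well above background, which left 27229. They were fitted on genotype alone with lmFit and eBayes, and the two-sided p-values received a Benjamini-Hochberg adjustment across this whole set. The offset and the filter were set here, since the methods state neither. Values are log2 differences, Pak1-/- minus Pak1+/+. The fit was tried on simulated data with independent noise and few changed probes. These arrays differ from that setting, so the trial does not check the calls made here. The number of arrays limits the precision.

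Every probe of the 10 genes was reported. From each related list, up to 5 called genes in each direction with the largest differences were named, among genes well above background on all arrays; other genes named there were chosen after their values were seen. A gene that this rule names is not reported here. "At least N-fold" compares the mean of the brighter group with, on each dim array, the higher of the probe's value and the weakest signal counted as well above background. The genes, lists and motifs were chosen with earlier results of these data known. Normalization, filter, spread, replicate block and the leaving out of each array were varied.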

Additional observations from a re-analysis of the deposited data

How the results depend on the processing

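The count of higher genes among the 10 was 5 to 7 over 16 alternatives and that of lower genes was 3 in each, while the share of all genes called moved from 31.6% to 55.8%. The higher count was 5 wherever Bcl2 lost its call, and also at an adjusted p under 0.01. It was 7 under cyclic loess, where Bad was added. Leave-one-out fits assume that a sample left alone varies as the other group does, and gave 5 or 6 higher and 3 lower. Over the 13 probes, 173 values stayed on the same side with the same sign, 7 no longer passed, all of them of Bcl2, 1 passed only under an alternative and 1 changed sign. The second Bad probe, not past the threshold, changed sign without Pak1-/- replicate 2 (−0.0044), with leave-one-out values from −0.0044 to 0.20. Pak1 passed with cyclic loess (0.27). The cause was not tested. No label ties samples of equal number to one another. With the number as a block (replicate block) 6 genes were higher and 3 lower as before, 13211 probes passed in place of 14132, and the replicate differences of the groups correlated at r = −0.028 across probes. All 13 probes were well above background on every array. Protein and phosphorylation were not measured.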
